A study of Mus musculus with 8 samples.

Results

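The MYC, MAX and MXD network was followed through its 10 genes, Myc, Mycn, Mycl, Max, Mxd1, Mxi1, Mxd3, Mxd4, Mnt and Mga, which were taken by name from the 54837 genes of the count table. RNA came from mammary basal cells of mice, the contractile layer that wraps the milk-producing epithelium. The mice carried the strain label C57BL/B6 and received no treatment. The cells were sorted into G1, the growth phase before DNA synthesis, and G0, in which cells rest and have left the cycle. Each of 4 runs gave 1 G1 library and 1 G0 library, so that 8 libraries were compared. Sources used here do not state the age of the mice, the number of animals behind a library or the markers used for sorting.

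All the proteins of the network carry a basic helix-loop-helix leucine zipper and most bind DNA as a dimer with MAX at the E-box, the sequence CACGTG. MYC, MYCN and MYCL pair with MAX to activate genes of ribosome building, nucleotide synthesis and cell cycle entry. MXD1, MXI1, MXD3, MXD4 and MNT pair with the same MAX and bring in the SIN3 and histone deacetylase co-repressors, while MGA, which also holds a T-box, joins MAX to a variant Polycomb complex. In many cell types MYC is low at rest and rises on entry to the cycle, whereas MXD1 and MXD4 are associated with resting or differentiating cells and MXD3 with cells in S phase.

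The E-box was searched in the 250 bases upstream of annotated starts (RefSeq, GRCm38.p6), on both strands at once because CACGTG is its own reverse complement. It was found in 6.02% of all such windows and for 6.86% of all genes. Among the members 9 of 10 had a window, and 2 of these 9 held an E-box, Mnt and Mxd4. Of 33 genes that MYC is known to induce, 27 had a window and 6 held an E-box, Cdk4, Eif4a1, Eif4e, Hspd1, Ldha and Nme1. The stretches below show the site that MYC and MXD dimers both bind, in the 2 members that hold it and in a pair of induced genes, with the E-box in capitals. They lie at chr11:74830781-74830826 on the plus strand (Mnt), chr5:34187904-34187949 on the minus strand (Mxd4), chr10:127063343-127063388 on the plus strand (Cdk4, the cyclin D partner kinase) and chr7:46845639-46845684 on the plus strand (Ldha, lactate dehydrogenase). None of these stretches overlaps an annotated exon. The Cdk4 window held 4 E-boxes and the Ldha window 2, and for each gene the E-box farthest upstream is shown. The stretch around the Cdk4 site nearest the start, which is not shown, overlaps an exon of Cdk4.
Mnt: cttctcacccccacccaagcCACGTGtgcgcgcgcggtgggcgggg
Mxd4: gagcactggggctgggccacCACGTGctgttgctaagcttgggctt
Cdk4: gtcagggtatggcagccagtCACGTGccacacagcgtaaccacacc
Ldha: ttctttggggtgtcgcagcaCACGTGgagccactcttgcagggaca
A match of the letters is a description of the window and not a measurement of binding.

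All 10 genes passed the filter on low counts that left 15192 genes, and 0 of them differed between G1 and G0 at an adjusted p of 0.05. Myc was abundant and nearly equal in the phases, at 591.8 ± 83.7 CPM (counts scaled to the library total) in G1 and 594.0 ± 82.4 CPM in G0 (SD, n = 4 each). Mxd3 had the largest fold change above 0 among the members and was the only member whose G1 libraries all lay above all G0 libraries, at 26.3 ± 4.48 CPM in G1 and 18.5 ± 3.18 CPM in G0 (SD, n = 4 each). The log2 fold change of Mxd3, G1 over G0, was 0.51 ± 0.21 (SE) with the phase alone in the model and did not pass edgeR's quasi-likelihood test (unadjusted p = 0.0297, Benjamini-Hochberg adjusted p = 0.9999). With the run added as a block, which compares the phases within runs, it was 0.51 ± 0.16 (unadjusted p = 0.00326, adjusted p = 0.126).

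Over all tested genes, the model with the phase alone called 0.0% higher and 0.0% lower in G1, while 1.03% higher and 1.77% lower had an unadjusted p under 0.05. The blocked fit called 1.24% of the table, 73 genes higher and 116 lower, and again 0 of the 10 members. Without run 4 it called 22 higher and 78 lower, and without run 1 it called 99 higher and 175 lower. At an unadjusted p under 0.05, 1 member, Mxd3, passed in each of these fits, against 2.8% of all tested genes with the phase alone and 12.3% with the block (6.58% higher and 5.69% lower). DESeq2 and limma-voom also called 0 members, each with 1 member at an unadjusted p under 0.05. The median log2 fold change of the members was -0.02 with the phase alone and -0.01 with the block, against 0.00 and 0.01 over all tested genes.

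Totals ran from 6807090 to 13711195 counts in the G1 libraries and from 5868728 to 15014104 in the G0 libraries. The G0 library of run 4 stood apart, with counts on 39094 genes against at most 26614 in the other libraries and 8.13% of its counts on Gm10800. All 6 basal markers were detected, with Krt14 at 8228 ± 1024 CPM in G1 and 7959 ± 981 CPM in G0, and Trp63, the transcription factor p63, at 111 ± 19.9 CPM in G1 and 111 ± 16.1 CPM in G0 (SD, n = 4 each). The basal markers differed between the phases in their sum, at 23200 to 26600 CPM in G1 and 17100 to 21400 CPM in G0. Of these 6, 1 was called higher with the block, the smooth muscle actin gene Acta2, at 12150 ± 2177 CPM in G1 and 7886 ± 1412 CPM in G0 (SD, n = 4 each), with a log2 fold change of 0.63 ± 0.10 (adjusted p = 0.000642, edgeR with the block, and 0.9999 with the phase alone). Markers of endothelial cells were lower in G1, where the 10 markers summed to between 26.4 and 114 CPM, against 158 to 276 CPM in G0. All 10 of them were called lower with the run as a block, with a median log2 fold change of -1.83. Fibroblast markers summed to between 241 and 598 CPM in G1 and between 205 and 870 CPM in G0, and adipocyte markers to between 29.5 and 204 CPM in G1 and between 147 and 428 CPM in G0. With the block 3 of 6 fibroblast markers were called lower, Col1a1, Col1a2 and Lum, with a median of -0.64 over the 6, and 1 of 2 tested adipocyte markers, Lpl, with a median of -1.35 over the 2. Of the 6 fibroblast markers 1 went the other way, at 0.58, and was not called. The fibroblast sum was higher in G1 in runs 1, 2 and 4 and lower in run 3. The 8 cycling-cell markers summed to between 19.2 and 41.2 CPM in G1 and between 10.9 and 27.2 CPM in G0. The 6 lymphocyte markers summed to at most 4.16 CPM in G1 and 17.1 CPM in G0, and 1 of them was high enough to be tested. In RNA from bulk samples, fewer cells of a type and less RNA per cell cannot be told apart, and the part of these markers in the members' values was not tested.

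**Figure D1:**
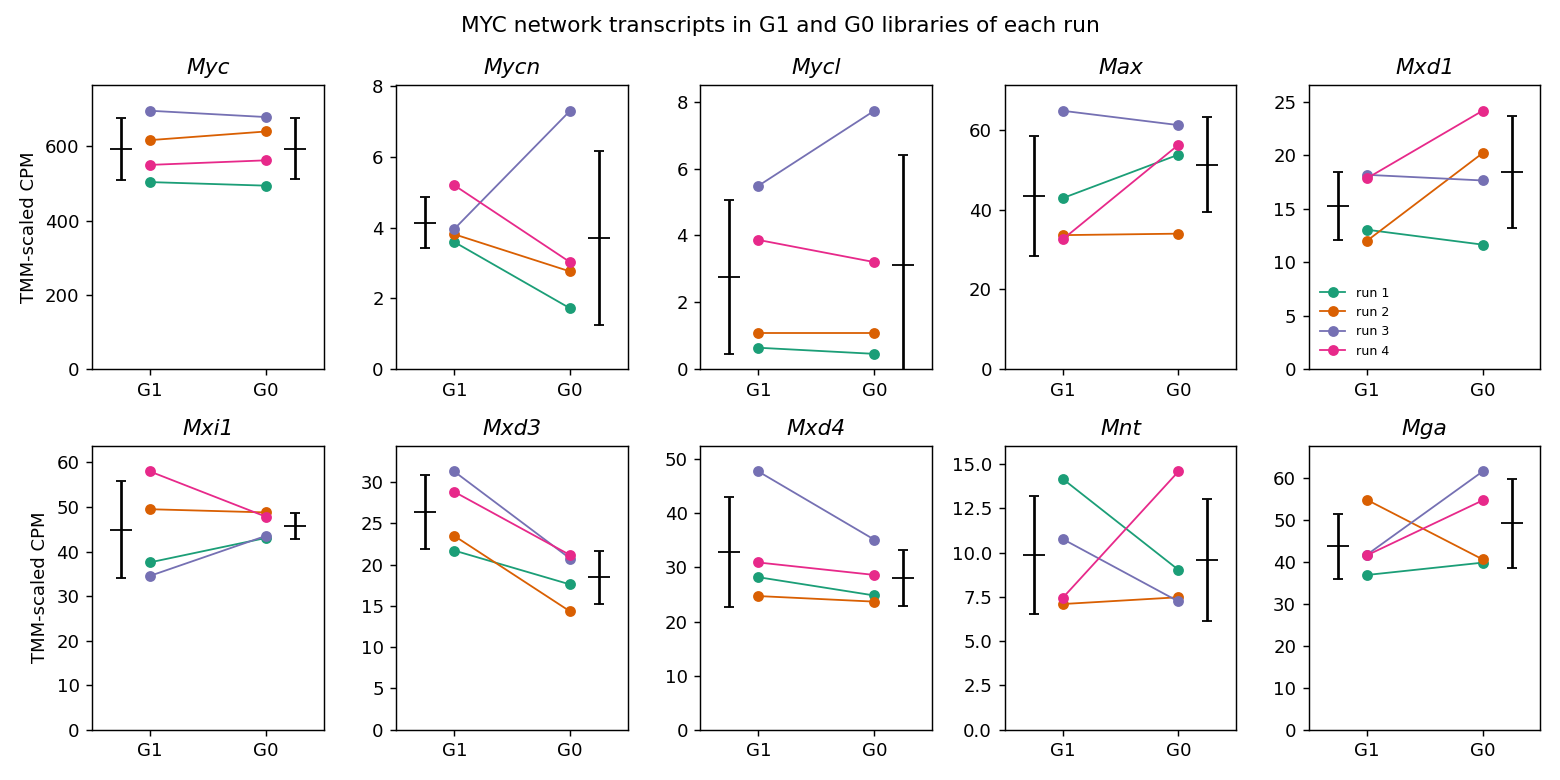
TMM-scaled CPM (vertical axis, from 0) of each member in the G1 library (left) and the G0 library (right) of each run, with a line joining the libraries of a run. Black marks give the mean and SD of 4 libraries, with the lower bar of Mycl cut at 0. Myc lines are nearly level, and Mxd3 is the only member whose G1 points, 21.7 to 31.3 CPM, all lie above its G0 points, 14.3 to 21.2 CPM.

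To compare levels between genes, CPM values were divided by the length of each gene's merged exons in kilobases. On that scale Myc stood far above the rest of the network, at 217.8 ± 30.8 CPM per kilobase in G1 and 219 ± 30.3 in G0, higher than 98.5% of tested genes. Max came next at 12.1 ± 4.17 CPM per kilobase in G1 and 14.3 ± 3.33 in G0, and Myc was 14.2 to 24.3 times Max in the G1 libraries and 12.1 to 24.9 times in the G0 libraries. Of the repressors, Mxd3 was the highest at 11.1 ± 1.89 CPM per kilobase in G1 and 7.79 ± 1.34 in G0, followed by Mxi1 at 6.58 ± 1.59 in G1 and 6.71 ± 0.43 in G0. Below them the order was Mxd4, Mga, Mxd1 and Mnt in both phases, from 3.88 down to 2.13 CPM per kilobase in G1 and from 3.31 down to 2.07 in G0. Mycn and Mycl were the lowest members, at 1.26 ± 0.22 and 0.68 ± 0.57 CPM per kilobase in G1 and 1.12 ± 0.75 and 0.77 ± 0.82 in G0 (SD, n = 4 for each value in this paragraph).

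Neighbours in this order overlapped in the range of their libraries except at a few steps. In G1, Myc lay clear of Max and Mxd3 lay clear of Mxi1, while Max and Mxd3 overlapped. In G0, Myc lay clear of Max, Max of Mxd3 and Mxi1 of Mxd4, while Mxd3 and Mxi1 overlapped. With the length of the longest coding transcript in place of all exons, a choice added after the data were seen, Mxd1 moved above Mga in both phases, at 3.27 against 3.14 CPM per kilobase in G1 and 3.95 against 3.53 in G0, and the rest of the order was the same.

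**Figure D2:**
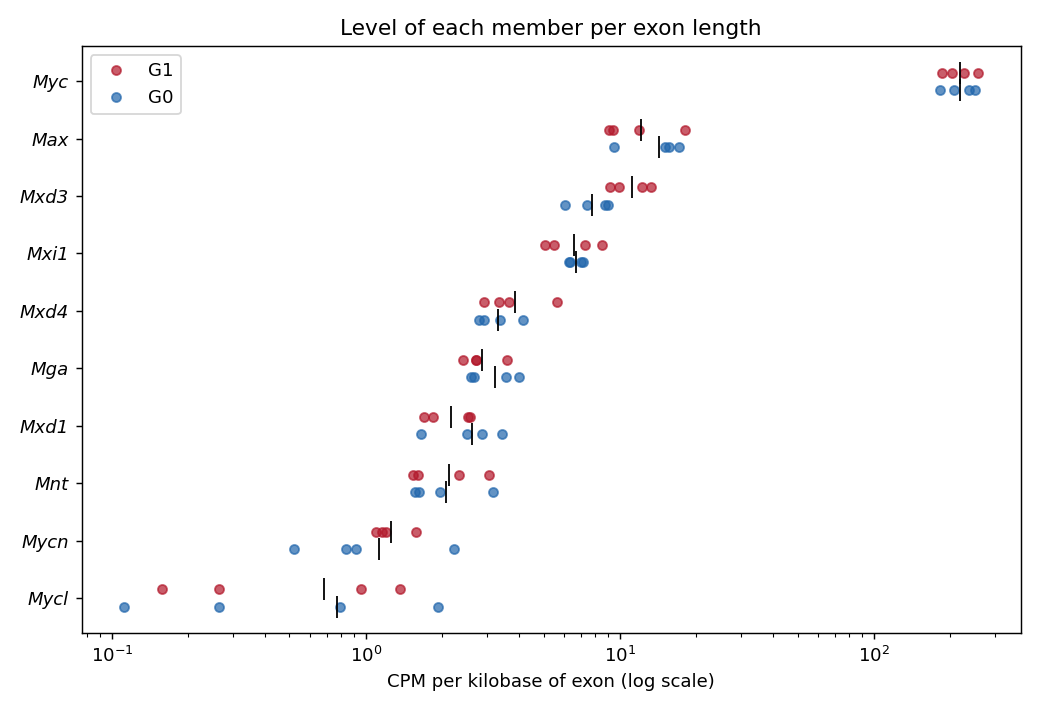
Level of each member in CPM per kilobase of exon (horizontal axis, log scale) in every library, with G1 points above G0 points for each gene and a black bar at the mean of 4 libraries. Myc lies near 218 in both phases, and every other member below 20.

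Among the activators, Myc made up 98.8% to 99.4% of the summed length-scaled level of Myc, Mycn and Mycl in G1 libraries and 98.4% to 99.7% in G0 libraries. Myc lies on chromosome 15 from 61985391 to 61990374 on the plus strand (GRCm38). In runs 1 to 4 it had 503.8, 617, 696 and 550.2 CPM in G1, against 494, 640.3, 679 and 562.5 CPM in G0. Run 1 was the lowest and run 3 the highest in each phase, and the phases overlapped throughout. Within runs the log2 ratio of G1 over G0 was 0.03, -0.05, 0.04 and -0.03, while the mean of a run differed between runs by up to 0.46 on the log2 scale. The fitted log2 fold change was -0.01 with a 95% interval from -0.40 to 0.39 with the phase alone, and from -0.21 to 0.20 with the run as a block (adjusted p = 0.992, edgeR).

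The even ratio of Myc was noticed after its values were seen. The largest of its absolute log2 ratios over the 4 runs was 0.0535, and 6 of the 10034 tested genes whose log2 CPM averaged 3 or more had a smaller one. Among 639 genes averaging 8 or more on that scale, where counting noise is small, 2 genes had a smaller one and the median was 0.365. Immediate early genes are a class of rapidly induced genes to which Myc is often assigned. All 20 of those listed had a fold change below 0 with the block, with a median of -0.25, where 51.1% of all tested genes had one above 0. Of the 20, 2 were called lower, against 0.764% of all tested genes, Egr1 at -0.47 ± 0.10 (adjusted p = 0.0162) and Klf2 at -0.81 ± 0.19 (adjusted p = 0.0285, edgeR with the block). In the same fit all 10 endothelial markers, the fibroblast markers Col1a1, Col1a2 and Lum, and the adipocyte marker Lpl were called lower in G1. The part of these markers in the values of this list was not tested. The difference between Myc and that list was not tested.

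Mycn and Mycl, the paralogs known from neural and lung tissue, were measured on few reads. Mycn had 3.60, 3.81, 3.96 and 5.20 CPM in the G1 libraries of runs 1 to 4, against 1.72, 2.76, 7.31 and 3.02 CPM in the G0 libraries. G1 was higher than G0 in runs 1, 2 and 4 and lower in run 3, where the G0 library held the highest value. Its log2 fold change was 0.31 with a 95% interval from -0.41 to 1.03 with the run as a block (adjusted p = 0.794, edgeR). Mycl had 0.63, 1.07, 5.49 and 3.86 CPM in G1, against 0.45, 1.07, 7.73 and 3.20 CPM in G0. The runs differed far more than the phases did, by up to 3.21 on the log2 scale between run means, with runs 3 and 4 high in both phases. Fibroblast and adipocyte markers were likewise highest in run 3 and next highest in run 4 in both phases. The fibroblast sum was 241, 318, 598 and 440.0 CPM in the G1 libraries of runs 1 to 4, against 205, 292, 870.0 and 298 CPM in the G0 libraries. The adipocyte sum was 29.5, 59.6, 204 and 103 CPM in G1, against 171, 147, 428 and 216 CPM in G0. Luminal markers were highest in run 3 and lowest in run 4 in both phases, and myeloid markers highest in run 4, at 386 CPM in G1 and 362 CPM in G0. The part of these cell types in the values of Mycl was not tested. Mycn lies on chromosome 12 from 12936093 to 12941914 and Mycl on chromosome 4 from 122995652 to 123002485.

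Max encodes the partner that MYC and the MXD proteins share at the E-box. It had 42.9, 33.6, 64.9 and 32.5 CPM in the G1 libraries of runs 1 to 4, against 53.9, 34.0, 61.3 and 56.4 CPM in the G0 libraries. The phases overlapped, and the difference lay mainly in run 4, with a log2 ratio of -0.79, against -0.33, -0.02 and 0.08 in runs 1 to 3. The log2 fold change was -0.25 with a 95% interval from -0.55 to 0.05 with the run as a block (adjusted p = 0.521, edgeR). Without run 4, whose G0 library stood apart, it was -0.10 (adjusted p = 0.932). The Max gene spans bases 76937269 to 76962201 of chromosome 12 (minus strand).

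Mxd3 was the member with the smallest p in both edgeR fits. Its gene spans bases 55325168 to 55329823 of chromosome 13 (minus strand). Its levels were 21.7, 23.5, 31.3 and 28.8 CPM in the G1 libraries of runs 1 to 4, against 17.6, 14.3, 20.7 and 21.2 CPM in the G0 libraries. Every G1 library lay above every G0 library, as did those of 0.829% of tested genes, with 1.17% the other way round, and the log2 ratios by run were 0.30, 0.71, 0.59 and 0.44. A ratio above 0 in all 4 runs was found for 11.3% of tested genes and for 2 of the 10 members, Mxd3 and Mxd4, and a ratio below 0 in all 4 for 9.48% of tested genes and 0 members. The 95% interval of the log2 fold change of Mxd3 ran from 0.06 to 0.97 with the phase alone and from 0.19 to 0.84 with the block. With each run left out of the blocked fit in turn the fold change ranged from 0.45 to 0.59 and the adjusted p from 0.145 to 0.324.

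Other measurements moved in the same direction as Mxd3. The summed cycling-cell markers were higher in G1 in each run, at 20.9, 19.2, 21.5 and 41.2 CPM in G1, against 17.0, 10.9, 19.3 and 27.2 CPM in G0. Of these 8 markers only 5 were tested, without Ccnb1, Aurkb and Plk1, and 0 were called with the block. The fold change of 4 of the 5 was above 0, with a median of 0.43 and the lowest at -0.35. By run, 5, 3, 4 and 3 of the 5 were higher in G1. Prelid1, a mitochondrial lipid transfer gene, overlaps 4.43% of the exon bases of Mxd3 on the opposite strand. Prelid1 averaged 227 CPM in G1 and 194 CPM in G0, with a log2 fold change of 0.21 ± 0.12 (adjusted p = 0.502, edgeR with the block). Whether reads were counted by strand is not stated, and the part of either in the values of Mxd3 was not tested.

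Mxd4 was higher in G1 within each run, by small amounts. It had 28.2, 24.7, 47.8 and 30.9 CPM in the G1 libraries of runs 1 to 4, against 24.8, 23.7, 35.1 and 28.6 CPM in the G0 libraries. Run 3 was the highest in both phases, and the phases overlapped. The log2 ratios were 0.18, 0.06, 0.44 and 0.11, and the fitted change was 0.20 with a 95% interval from -0.09 to 0.50 (adjusted p = 0.621, edgeR with the block). Without the G1 library of run 3 in the fit with the phase alone it was -0.0044. Gm42846, which lies on the opposite strand and shares 6.06% of the exon bases of Mxd4, averaged 5.98 CPM in G1 and 3.50 CPM in G0. The Mxd4 gene spans bases 34173883 to 34187720 of chromosome 5 (minus strand).

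Mxd1, the first described MXD repressor, had 13.0, 11.98, 18.2 and 17.8 CPM in G1, against 11.6, 20.2, 17.7 and 24.2 CPM in G0. It was lower in G1 in runs 2 and 4, at log2 ratios of -0.75 and -0.43, and higher in runs 1 and 3, at 0.16 and 0.04. Its fold change was -0.25 with a 95% interval from -0.63 to 0.14 (adjusted p = 0.651, edgeR with the block). Mxi1, also called MAD2, ranged from 34.5 to 58.0 CPM in G1 and from 43.0 to 48.8 CPM in G0. The G1 libraries spread more widely than the G0 libraries, and runs 2 and 4 had ratios above 0 and runs 1 and 3 below. The fitted change of Mxi1 was -0.06 with a 95% interval from -0.34 to 0.22 (adjusted p = 0.906, edgeR with the block). Mxd1 lies on chromosome 6 from 86647042 to 86669161 and Mxi1 on chromosome 19 from 53310518 to 53375810.

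Mnt and Mga, the larger and more widely expressed antagonists, changed sign between runs. Mnt had 14.2, 7.09, 10.8 and 7.43 CPM in G1, against 9.03, 7.48, 7.24 and 14.6 CPM in G0. Its log2 ratio was 0.64 and 0.56 in runs 1 and 3 and -0.07 and -0.95 in runs 2 and 4, and the fitted change was 0.08 with a 95% interval from -0.42 to 0.59 (adjusted p = 0.935, edgeR with the block). Mga had 36.9, 54.9, 41.8 and 41.6 CPM in G1, against 39.9, 40.7, 61.7 and 54.8 CPM in G0. It was higher in G1 in run 2, at 0.43, and lower in the others, at -0.11, -0.56 and -0.39, with a fitted change of -0.16 and a 95% interval from -0.47 to 0.15 (adjusted p = 0.748, edgeR with the block). Mnt lies on chromosome 11 from 74830920 to 74845725 and Mga on chromosome 2 from 119897228 to 119969581.

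**Figure D3:**
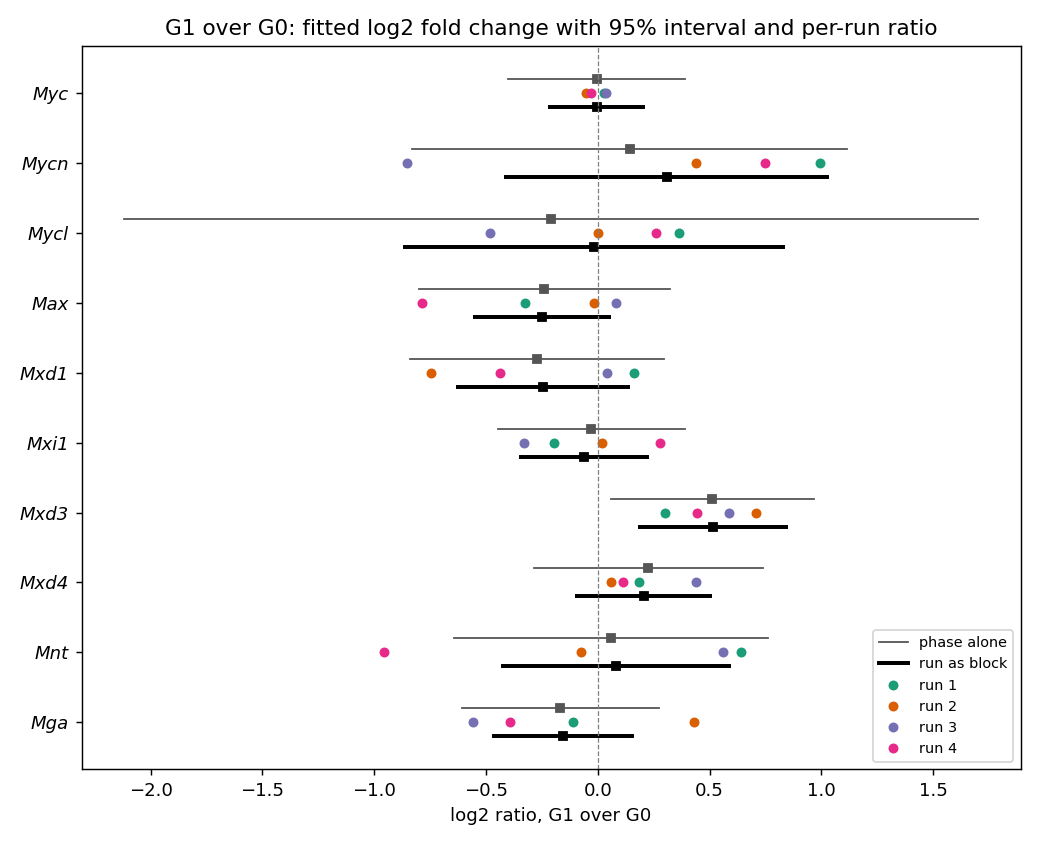
Log2 ratio of G1 over G0 (horizontal axis) for each member. Grey squares and thin lines give the fitted log2 fold change and its 95% interval with the phase alone, black squares and thick lines the same with the run as a block, and coloured points the ratio in each run. The interval of Mxd3 alone lies above 0 in both fits, and the 4 points of Myc lie between -0.05 and 0.04.

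The balance of the antagonists was described by the summed length-scaled level of the 6 repressors over that of the 3 activators in each library, as a log2 ratio and with no test. It was -2.88, -3.09, -3.04 and -2.72 in the G1 libraries of runs 1 to 4, against -3.00, -3.36, -3.22 and -2.83 in the G0 libraries. On this scale of merged exon length, activator transcripts thus exceeded repressor transcripts by 6.58 to 8.5 times in G1 libraries and by 7.09 to 10.2 times in G0 libraries. The ratio was higher in G1 within each run, by 0.11, 0.27, 0.18 and 0.11, and its mean was -2.93 ± 0.17 in G1 and -3.10 ± 0.24 in G0 (SD, n = 4 each), a difference of 0.167. Without Mxd3 the difference was -0.01, with 0.03, 0.04, -0.05 and -0.09 in runs 1 to 4. Without division by length it was 0.04, with 0.02, 0.20, -0.04 and -0.03. In both of these settings the sign thus changed between runs. Mxd3 held 36.2% to 41.9% of the repressor sum in G1 libraries and 26.2% to 32.5% in G0 libraries. The excess of activators was smaller on other scales. Without division by length the log2 ratio was -1.94 to -1.6 in G1 libraries and -2.05 to -1.57 in G0 libraries. With the length of the longest coding transcript it was -2.66 to -2.26 in G1 and -2.96 to -2.43 in G0.

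For Myc, Max and Mxd3, the genes with the most similar profile were found by the root mean square difference of mean-centred log2 CPM over the 8 libraries, among 9365 genes. The closest to Myc were Homer3, a scaffold protein, Pltp, a phospholipid transfer protein, and Slc3a2, the heavy chain of amino acid transporters, at 0.068, 0.0714 and 0.0722, against a median of 0.346 over all these genes. Closest to Max were Foxp4, B4galt5 and Arl4c, at 0.123, 0.127 and 0.133, against a median of 0.482. For Mxd3 they were Pcbd1, Mtif3 and Fahd2a, at 0.0939, 0.117 and 0.122, against a median of 0.443, and all 3 had a fold change above 0 with the block, at 0.59, 0.38 and 0.31, none of them called. Libraries of the same run deviated together, so the 8 points behind each likeness are not independent.

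Around the members, 9 lists of partner, cofactor and target genes were read in the same fits, and with the phase alone 0 of their genes were called. In the parallel arm of the network, MLX pairs with MLXIP and MLXIPL, the glucose-sensing factors MondoA and ChREBP, and with some MXD proteins. Of this arm and the MYC partner MIZ1 (Zbtb17), 0 of 4 genes were called, where the blocked fit called 0.481% of the table higher and 0.764% lower. Mlx had 21.1, 17.9, 28.1 and 23.0 CPM in the G1 libraries of runs 1 to 4, against 20.3, 13.7, 18.6 and 18.5 CPM in the G0 libraries, and was higher in G1 within each run. Its log2 fold change was 0.34 ± 0.16 (adjusted p = 0.406, edgeR with the block). Mlxipl was low, at 2.93 ± 0.76 CPM in G1 and 5.09 ± 1.49 CPM in G0 (SD, n = 4 each), and had -0.78 ± 0.31 (adjusted p = 0.279, edgeR with the block).

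None of the 16 genes of the SIN3 and histone deacetylase co-repressors was called with the block, and their median was 0.04. The scaffold genes Sin3a and Sin3b, to which the MXD proteins bind, had -0.02 ± 0.18 and 0.08 ± 0.11, and the deacetylase genes Hdac1 and Hdac2 had 0.07 ± 0.12 and 0.23 ± 0.13. Sap30, a subunit of the SIN3 complex, had 0.65 ± 0.21 (adjusted p = 0.141, edgeR with the block). Of 10 genes of the Polycomb complex that MGA joins, 0 were called, and the subunit Rybp had -0.36 ± 0.14 (adjusted p = 0.248) and Pcgf6, the ring finger subunit specific to it, 0.19 ± 0.13 (adjusted p = 0.615, edgeR with the block).

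Of 14 co-activator genes that MYC recruits, 0 were called, 4 had a fold change above 0 and the median was -0.08. The chromatin remodeller Ep400 had -0.33 ± 0.15 (adjusted p = 0.388, edgeR with the block). Among 12 genes of MYC protein turnover, such as the ubiquitin ligase gene Fbxw7 that marks MYC for decay, 0 were called, with a median of -0.08. Usp36, a deubiquitinase of the nucleolus, had -0.17 ± 0.13 (adjusted p = 0.639, edgeR with the block). In the list of regulators of Myc transcription 8 of 9 genes were tested and 0 called. Pvt1, the long non-coding RNA gene next to Myc, averaged 13.35 ± 1.65 CPM in G1 and 10.6 ± 2.33 CPM in G0 (SD, n = 4 each), with 0.36 ± 0.21 (adjusted p = 0.509, edgeR with the block). Of 5 tested factors of the related USF and TFE families, which bind the same E-box, 0 were called.

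Of 33 tested genes that MYC is known to induce, 1 was called higher with the block and 0 lower, and 0 were called with the phase alone. The fold change of 29 was above 0 with the block, against 51.1% of all tested genes, and 27 with the phase alone, against 49.9%. Their median was 0.13 with the block, against 0.01 over all tested genes. The gene called was Ccnd2, cyclin D2, at 0.73 ± 0.11 (adjusted p = 0.000406 with the block and 0.500 with the phase alone, edgeR, and 0.00651 by DESeq2 with the phase alone). Ccnd2 had 194.8, 166.7, 215.9 and 194.9 CPM in the G1 libraries of runs 1 to 4, against 124.2, 106.5, 125.8 and 109.5 CPM in the G0 libraries. It was the 1 gene of the 33 with every G1 library above every G0 library, against 0.829% of all tested genes. By run, 24, 23, 20 and 27 of the 33 genes were higher in G1, against 50.9%, 52.3%, 52.0% and 49.4% of all tested genes, and the medians were 0.04, 0.11, 0.04 and 0.37. Run 4, which holds the G0 library that stood apart, thus had the largest median.

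Below Ccnd2 the values were smaller. Hspe1, a mitochondrial chaperonin, had 0.42 ± 0.12 (adjusted p = 0.109, edgeR with the block), and Odc1, ornithine decarboxylase of polyamine synthesis, 0.29 ± 0.10 (adjusted p = 0.221). Npm1, the nucleolar protein nucleophosmin, had 0.28 ± 0.12 (adjusted p = 0.295), and the lowest of the list was Polr1b, a subunit of RNA polymerase I, at -0.22 ± 0.13 (adjusted p = 0.537). Nucleolar genes such as Ncl, at 0.16 ± 0.11, Nop56, at 0.05 ± 0.11, and Nop58, at 0.01 ± 0.10, were not called. Of 7 genes that MYC is known to repress, 0 were called and the median was -0.02. The stress-induced gene Ndrg1 had 396.5, 414.6, 312.4 and 323.0 CPM in the G1 libraries of runs 1 to 4, against 464.0, 511.1, 435.0 and 428.6 CPM in the G0 libraries. It was the 1 gene of the 7 with every G1 library below every G0 library, against 1.17% of all tested genes. The log2 fold change of Ndrg1 was -0.35 ± 0.11 (adjusted p = 0.110 by edgeR and 0.0356 by DESeq2, both with the block). Cdkn1a, which encodes the inhibitor p21, was lower in G1 in each run, with -0.33 ± 0.11 (adjusted p = 0.140, edgeR with the block).

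**Figure D4:**
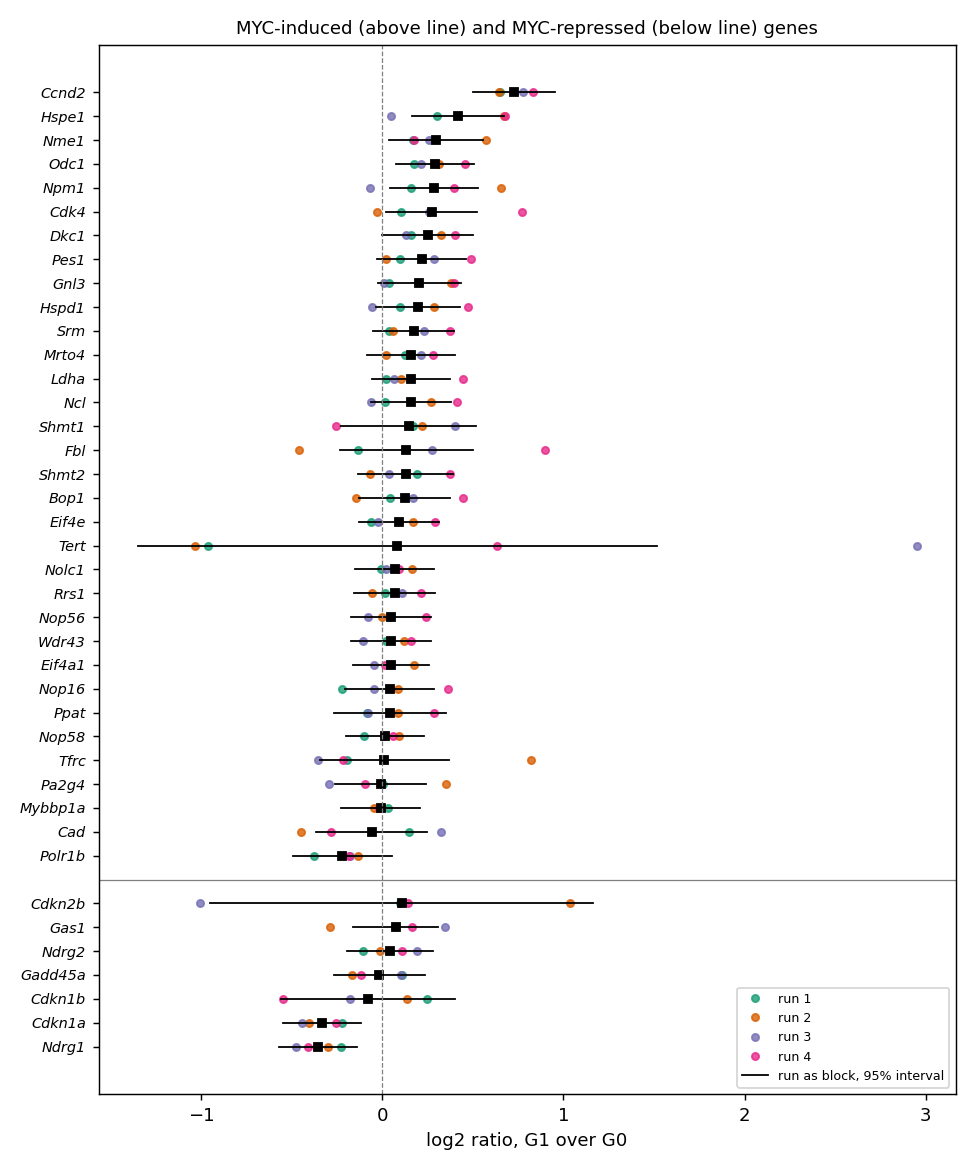
Log2 ratio of G1 over G0 (horizontal axis) for the 33 MYC-induced genes above the grey line and the 7 MYC-repressed genes below it. Black squares and lines give the fitted log2 fold change and its 95% interval with the run as a block, and coloured points the ratio in each run. Ccnd2 lies at the top at 0.73, and 29 of the 33 induced genes lie above 0.

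The 6 induced genes with an E-box in the upstream window had log2 fold changes with the block from 0.05 to 0.30 and a median of 0.18, against -0.22 to 0.42 and a median of 0.07 for the 21 without one, and none of these 27 genes was called. Induced genes without a window are outside this comparison, among them Ccnd2, the only one called, at 0.73, and Npm1, at 0.28. Hspe1, the highest of the 21 at 0.42, counts as lacking an E-box, but the stretch around the Hspd1 site overlaps an exon of Hspe1. The difference between the groups was not tested. Of those whose sites are shown above, Cdk4 had 0.27 ± 0.12 (adjusted p = 0.361) and Ldha 0.16 ± 0.10 (adjusted p = 0.586, edgeR with the block), and the members Mnt and Mxd4 were not called either. Of the repressed genes, 0 of 6 with a window held an E-box.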

How the data were processed

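The authors deposited 1 table of unnormalized read counts, as integers for each Ensembl gene and library. Polyadenylated RNA was sequenced as stranded paired-end libraries, per the labels' protocols, and the submitters' processing notes name Trimmomatic 0.35, STAR 2.5.2a and the mm10 build. How reads were counted, by strand or not and on which annotation, is not given. Symbols, positions and exon lengths came from GENCODE M21 (GRCm38), which lacked 29 of the table's identifiers.

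Titles gave the phase and the run. Chi-square over degrees of freedom was 23.99 to 109.7 between libraries of a phase, so none was a copy. The labels do not say whether runs used separate animals, and p-values reflect only how these libraries vary, for reasons that can be technical. The main test was two-sided and quasi-likelihood with robust dispersion (edgeR 4.0.16, R 4.3.3), with TMM factors, filterByExpr and the phase alone, adjusted by Benjamini-Hochberg over 15192 genes. Standard errors equal the absolute fold change (log2) divided by the root of F. A prior count of 2 entered the log2 ratios of single runs. Deviations from the phase means correlated at 0.668, 0.47, 0.638 and 0.437 between the libraries of runs 1 to 4 and at most 0.0971 between different runs. Runs were therefore taken as pairs, and the run was added as a replicate block in a second fit.

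Alternatives were RLE factors, other filters, DESeq2 1.42.0, limma-voom (limma 3.58.1), the block, and libraries or runs left out. The fits were also run on simulated counts with known changes, and the outcome is not reported here. The members and lists were chosen with earlier results of these data known. All members are named; from each list the rule takes called genes and the 2 with the smallest p in the blocked fit, and for Myc, Max and Mxd3 the 3 nearest profiles, passing over Gm and Rik symbols. Sin3a, Sin3b, Hdac1, Hdac2, Fbxw7, Zbtb17, Odc1, Npm1, Polr1b, Ncl, Nop56, Nop58, Cdk4, Eif4a1, Eif4e, Hspd1, Ldha and Nme1 lie outside it and were chosen with their values known, and some genes that the rule takes are not reported here.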

Additional observations from a re-analysis of the deposited data

How the results depend on the processing

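With 4 libraries in each phase, the 95% intervals of the members' log2 fold changes with the block spanned from -0.86 to 1.03, widest for Mycn and Mycl, which have few counts. In all 21 alternatives 0 members were called (Mycl was not tested under the stricter filter of 10 counts in every library), and Mxd3 kept a fold change above 0, from 0.415 to 0.600 (adjusted p from 0.112 to 1.0). The sign turned without the low-count filter for Myc (0.0347) and Mxi1 (0.0101). With single libraries left out of the fit with the phase alone, Myc ranged from -0.0886 to 0.069, Mxi1 from -0.179 to 0.0805, Mnt from -0.166 to 0.323, Mycn from -0.0919 to 0.736, Mycl from -0.814 to 0.868, Mxd4 from -0.0044 to 0.36, Hspe1 from -0.522 to 1.33 and Sap30 from -0.0804 to 1.4. With single runs left out of the blocked fit, Myc ranged from -0.0256 to 0.0147, Mxi1 from -0.177 to 0.0228, Mnt from -0.127 to 0.383 (-0.0889 without run 3) and Mycl from -0.142 to 0.224. The cause was not tested.

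Genes called over the whole table numbered 0 higher and 0 lower with the phase alone, 10 and 24 by DESeq2, and 14 and 73 without the filter. With the replicate block they numbered 73 and 116, with DESeq2 97 and 136, with limma-voom 77 and 134, with RLE factors 74 and 123, and with runs 1 to 4 left out in turn 99, 63, 73 and 22 higher and 175, 90, 144 and 78 lower. Of the genes in the partner, cofactor and target lists, 1 was called higher (Ccnd2) by DESeq2 and in each of these blocked fits. With the block and DESeq2 1 was called lower (Ndrg1), and with single runs left out 1 to 2 were higher and 0 to 1 lower, Hspe1 being the second higher gene without run 3. The block changed no call of a member. The repressor to activator difference of 0.167 was 0.205 without Mga and 0.0811 to 0.258 with single libraries left out.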
